A study of Mus musculus with 20 samples.

Results

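The genes described here encode the factors that start and carry out protein synthesis on cytoplasmic ribosomes, the eukaryotic initiation factors (Eif1 to Eif6) and the elongation factors (Eef1 and Eef2) with their binding proteins and modifying enzymes. Members were all genes whose symbol in the array annotation begins with Eif and a digit or with Eef1 or Eef2, except the Eif2ak kinases, and that had a probe set annotated with that gene alone. The rule found 48 of the 12393 genes on the array, with 109 probe sets among them. A further 6 probe sets were annotated with a translation factor gene together with another gene and were not used. One probe set stood for each gene, that of the highest mean, and genes in the lowest 40% by mean level were left out of the tests, which kept 45 of the 48 members and 7436 genes in all.

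RNA came from MIN6, a mouse pancreatic beta cell line, grown in medium with 22.7 mM or 5.5 mM glucose. At each glucose level cells were either untreated or given human amylin, the islet hormone that aggregates into amyloid, at 1, 10 or 20 µM for 2, 12 or 24 h. Each of the 20 combinations was measured on 1 array, so no condition had a replicate, and nothing states whether the cultures were separate. The glucose comparison rested on 10 pairs of arrays with the same amylin treatment, that of treated with untreated cells on 1 untreated array per glucose level, and those of time and of dose on 6 pairs each. Values are log2 probe set signals, and a level of one probe set cannot be set against that of another. In bulk RNA, fewer cells of a type and less RNA per cell cannot be told apart.

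Initiation begins when eIF2, loaded with GTP and the initiator tRNA, joins the small ribosomal subunit with eIF1, eIF1A, eIF3 and eIF5. The eIF4 factors bring in the capped mRNA, and eIF4E-binding proteins block this step until mTORC1 phosphorylates them. Stress kinases phosphorylate eIF2, which traps its exchange factor eIF2B, lowers overall initiation and raises translation of the transcription factor Atf4; Eif4ebp1 is a known Atf4 target gene, also in beta cells.

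Many mRNAs of the translation apparatus start with a C followed by a run of pyrimidines, through which mTORC1 controls their translation. RefSeq promoter windows on GRCm38.p6 were matched for 38 of the 48 members, and a C followed by at least 4 pyrimidines stood at the annotated start in 2 of them, 5.26%, against 2.96% of the 6081 tested genes with a window. These are shown because they are the only members whose annotated start carries the letters, each from 10 bases before the start to 20 bases from it, with the run in capitals. The first lies at chrX:94212632-94212661 on the minus strand and the second at chr7:108934405-108934434 on the plus strand.
Eif2s3x: gagcattttcCTTTTCTCTCCgagcaagat
Eif3f: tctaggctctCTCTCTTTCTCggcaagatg
Both runs are 11 bases long. The letters TGATGNAA, a core of the element that Atf4 and its partners bind, were found on either strand in the 300-base windows of 2 of the 38 members, Eif2s3x and Eef2k, again 5.26%, against 2.5% of tested genes and 4.51% of the 27025 genes with a window. Eif4ebp1 was among the members without a matched window, so it was not searched for either run of letters.

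Of the beta cell markers listed, 7 of 9 had a probe set and all 7 were tested, with mean levels between 10.1 and 14.6. Of 10 fibroblast markers 3 passed the filter on low values, and of 5 immune and endothelial markers 0 did. Of 5 acinar markers 2 passed it, with a highest mean of 7.86. Of 3 other islet hormone genes 2 passed it, with a highest mean of 11.2, inside the range of the beta cell markers. The 2 arrays for which no scanner description was used, one at 22.7 mM glucose (amylin 1 µM, 12 h) and one at 5.5 mM (amylin 10 µM, 24 h), stood apart, with mean correlations to the other arrays of 0.972 and 0.962 against 0.986 to 0.990. The pair given 1 µM for 2 h differed from the other pairs. Of the 515 genes called for glucose when it was left out, 280 (54.4%) had the same sign in that pair, while the other pairs shared the sign with 60.4% to 100% of the genes called without them. The 3′ minus 5′ signal of the actin control probes, which rises as RNA is degraded or copied incompletely, averaged 1.83 at 22.7 mM and 1.22 at 5.5 mM, so that this measure of RNA quality moved with the glucose level, and its part in the differences below was not tested beyond the fit that includes it.

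Between 22.7 and 5.5 mM glucose 0 of the 45 tested translation factor genes passed limma's moderated test at an adjusted p under 0.05, in a comparison where 5.49% of all tested genes passed. At an unadjusted p under 0.05 there were 9 members, 20% against 22.6% of all genes. Of these 9, 7 had negative differences (15.6% of members against 6.32% of all genes) and 2 had positive ones (4.44% against 16.3%). The median difference over the 45 members was −0.01, and that over all tested genes was 0.04. The largest differences were those of the eIF4E-binding protein gene Eif4ebp1, the helicase gene Eif4a1, the other helicase gene Eif4a2, the elongation factor gene Eef1a2 and the second binding protein gene Eif4ebp2. Leaving out the pair given 1 µM for 2 h let 3 members pass, Eef1a2, Eif4ebp1 and Eif4ebp2, 6.67% against 6.93% of all genes, and leaving out the 2 arrays that stood apart also let 3 pass, Eef1a1, Eif4a1 and Eif5, 6.67% against 9.99% of all genes. Eif5 had −0.19 over all arrays and −0.24 without these 2 (adjusted p = 0.0406).

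**Figure D1:**
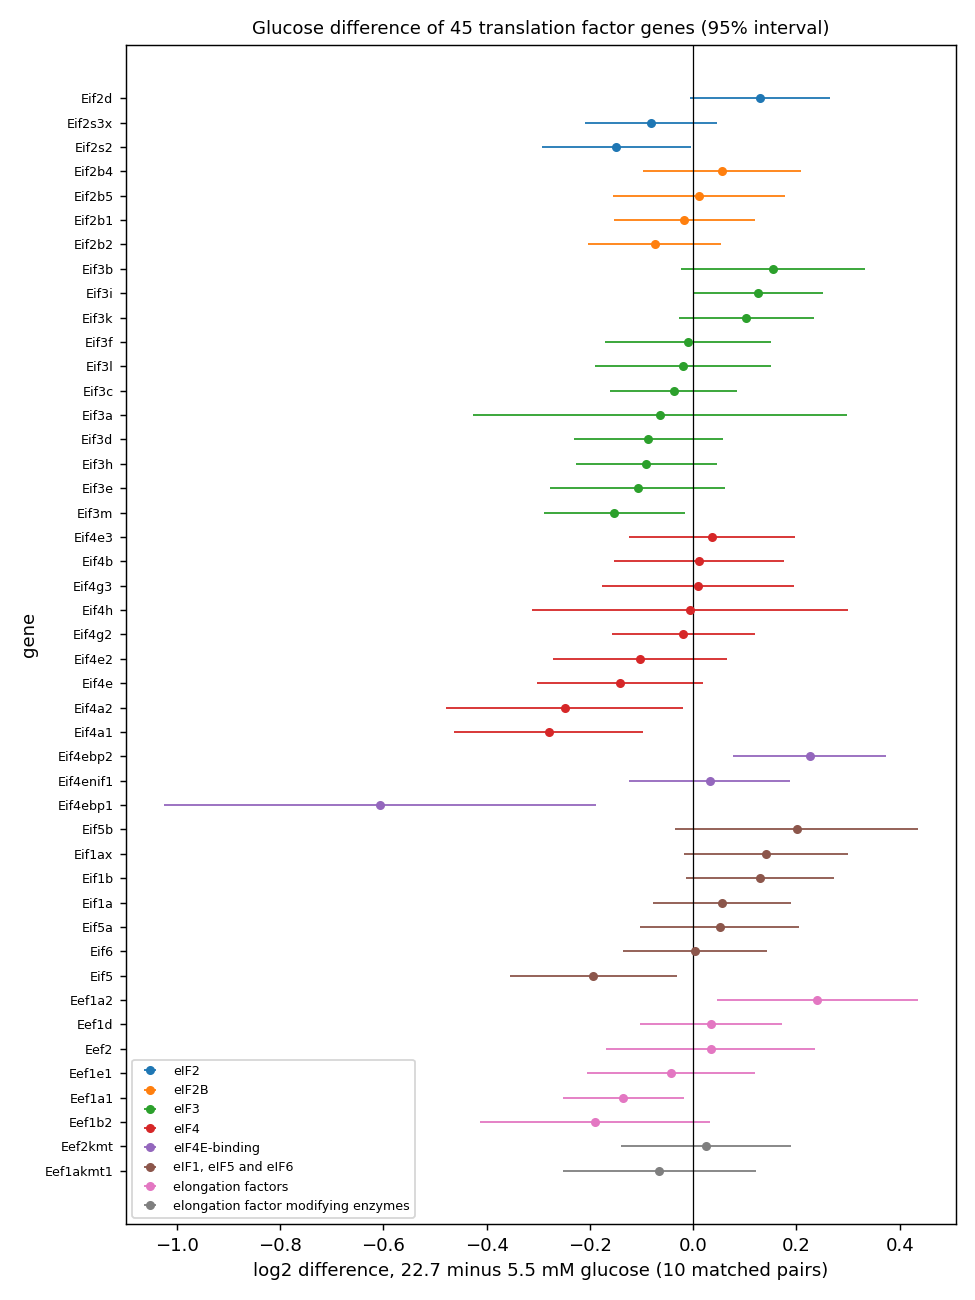
Log2 difference between 22.7 and 5.5 mM glucose for the 45 tested translation factor genes, grouped by factor and ordered within each group; points are estimates over 10 matched pairs and bars are 95% intervals from limma. Eif4ebp1 lies farthest to the left at −0.61, and 6 of the 45 reach a size of 0.2 (13.3%, against 16.6% of all genes).

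The eIF2 and eIF2B genes had small differences. Eif2s1, the gene of the alpha subunit of eIF2, had no probe set annotated with that gene alone. Eif2s2, which encodes the beta subunit of eIF2, ranged from 10.7 to 11.1 with a median of 10.8 at 22.7 mM, and from 10.7 to 11.3 with a median of 11.0 at 5.5 mM. The levels overlapped, and its difference was −0.15 (SE 0.07, adjusted p = 0.208, negative in 8 of 10 pairs). Eif2s3x, the X-linked gene of the gamma subunit, had a difference of −0.08 (95% interval −0.21 to 0.05). Its Y-linked copy Eif2s3y had levels of 3.28 to 3.63, below the filter. Eif2d encodes a factor that delivers tRNA to ribosomes without GTP and takes part in ribosome recycling, and its difference was 0.13 (95% interval −0.01 to 0.27). Of the exchange factor genes, Eif2b5, which encodes the catalytic epsilon subunit, differed by 0.01 (95% interval −0.16 to 0.18), and Eif2b2, which encodes the beta subunit, had the smallest p of its group, at −0.07 (95% interval −0.20 to 0.05).

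The eIF3 complex forms the scaffold on the small subunit, and all 11 of its genes with a probe set were tested. Their differences ran from −0.15 to 0.15 with a median of −0.04. By the probe set used 8 of the 11 were negative, as were 38.7% of all tested genes. One of the 8, Eif3e, had −0.11 by that set and 0.09 and 0.03 by its other tested sets. Eif3m had the smallest p among them, with −0.15 (SE 0.06, adjusted p = 0.176, negative in 7 of 10 pairs). Among the positive differences Eif3i had the smallest p, with 0.13 (SE 0.06, adjusted p = 0.222, positive in 8 of 10 pairs). Eif3a, which encodes the largest subunit, had the second highest SD of all members over the 20 arrays, 0.39, and 0.27 without the 2 arrays that stood apart. Its levels ran from 9.85 to 10.8 at 22.7 mM and from 9.37 to 10.8 at 5.5 mM, with medians of 10.6 in both.

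Among the 9 eIF4 genes, which encode cap-binding, helicase and scaffold proteins, 6 differences were negative by the probe set used and the median was −0.02. Eif4a1, which encodes the RNA helicase that unwinds the 5′ ends of mRNAs, ran from 11.1 to 11.8 with a median of 11.4 at 22.7 mM, and from 11.2 to 12.0 with a median of 11.7 at 5.5 mM. It was lower at 22.7 mM in 9 of 10 pairs, the exception being the pair with the deviating array at 5.5 mM, with a difference of −0.28 (SE 0.09, adjusted p = 0.0682). Without the 2 deviating arrays it was −0.37 (SE 0.06, adjusted p = 0.00199), with scan day as a block −0.37 (adjusted p = 0.00325), and with the actin control signal as a covariate −0.07 (SE 0.14, adjusted p = 0.867). The within-day values were −0.19, −0.60 and −0.07 on days 2, 3 and 4.

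Its paralogue Eif4a2 ran from 10.3 to 11.0 at 22.7 mM and from 10.6 to 11.2 at 5.5 mM, with a difference of −0.25 (SE 0.11, adjusted p = 0.188). With the actin covariate that difference was 0.12 (SE 0.16), so its sign depended on the covariate. Eif4e, which encodes the cap-binding protein itself, had −0.14 (SE 0.08, adjusted p = 0.287) and 0.10 with the covariate. Another tested Eif4e set had 0.14 (SE 0.09), so its sign also rested on the probe set used. Tested sets of opposite sign were found for Eif4e2, Eif4b, Eif4e3 and Eif4h too. Eif4g3 and Eif4g2, genes of a scaffold and of a scaffold-like protein without the eIF4E site, had 0.01 and −0.02. The scaffold gene Eif4g1 had no probe set annotated with it alone. Eif4h, a helicase cofactor gene, had −0.01 with a wide 95% interval, −0.31 to 0.30.

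The eIF4E-binding genes Eif4ebp1 and Eif4ebp2 had differences of opposite sign. Eif4ebp1 at 22.7 mM was 8.81 in untreated cells, 9.79, 8.99 and 8.97 with 1 µM amylin for 2, 12 and 24 h, 8.79, 8.63 and 8.57 with 10 µM, and 8.81, 9.06 and 8.25 with 20 µM. At 5.5 mM it was 10.36 in untreated cells, 8.47, 9.06 and 10.13 with 1 µM, 9.84, 9.44 and 9.57 with 10 µM, and 9.31, 9.35 and 9.20 with 20 µM. The array at 5.5 mM was higher in every pair except that given 1 µM for 2 h, where 22.7 mM was higher by 1.32, and the ranges of the levels overlapped through that pair. The fitted difference was −0.61 (SE 0.20, 95% interval −1.02 to −0.19, adjusted p = 0.0816), a level 1.52-fold higher at 5.5 mM. Without the pair given 1 µM for 2 h it was −0.82 (adjusted p = 0.00296). The within-day differences were −0.56, −0.24 and −1.36 on days 2, 3 and 4, with scan day as a block the fit gave −0.83 (SE 0.23, adjusted p = 0.0251), and the actin covariate gave −0.57 (SE 0.36, adjusted p = 0.545).

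Eif4ebp2, which encodes the form of the binding protein best known from brain, had the opposite sign. It ran from 8.09 to 8.49 with a median of 8.27 at 22.7 mM and from 7.78 to 8.32 with a median of 8.06 at 5.5 mM, and was higher at 22.7 mM in 9 of 10 pairs (difference 0.23, SE 0.07, adjusted p = 0.0678). Its 3 other tested probe sets had differences of −0.11, −0.07 and −0.14, so the sign rested on the probe set used. Eif4enif1, which encodes the eIF4E transporter, had 0.03 (95% interval −0.12 to 0.19).

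Of the 7 genes of eIF1, eIF5 and eIF6, 6 had positive differences by the probe set used. The exception, Eif5, encodes the protein that makes eIF2 hydrolyse its GTP, and its difference was −0.19 (SE 0.08, adjusted p = 0.145, negative in 7 of 10 pairs). Its levels at 22.7 mM ran from 11.0 to 11.5 with a median of 11.2, and at 5.5 mM from 11.0 to 11.6 with a median of 11.4. Eif5b, whose GTPase joins the large subunit, had 0.20 (SE 0.11, adjusted p = 0.304). Eif5a, which encodes the hypusine-carrying factor of peptide bond formation, had 0.05 (95% interval −0.10 to 0.21), and Eif6, which keeps the large subunit from joining too early, had 0.004 (95% interval −0.14 to 0.14). Another tested set of each of Eif5b, Eif5a and Eif1a had −0.27 (SE 0.08), −0.21 (SE 0.12) and −0.15 (SE 0.13). For these genes the sign rested on the probe set used, while the other tested set of Eif1ax was positive, at 0.03.

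The 6 elongation factor genes divided evenly in sign, with a median of −0.004. Eef1a1, the general carrier of aminoacyl-tRNA, ran from 13.2 to 13.6 with a median of 13.4 at 22.7 mM and from 13.3 to 13.7 with a median of 13.6 at 5.5 mM. It was lower at 22.7 mM in 9 of 10 pairs (−0.14, SE 0.06, adjusted p = 0.157, and −0.16 with adjusted p = 0.0317 without the 2 deviating arrays). Its paralogue Eef1a2, known from muscle and neurons, ran from 8.54 to 9.33 with a median of 8.89 at 22.7 mM and from 8.44 to 8.92 with a median of 8.67 at 5.5 mM. It was higher at 22.7 mM in 8 of 10 pairs (0.24, SE 0.09, adjusted p = 0.132), within-day values were 0.20, 0.16 and 0.33, and the block for scan day gave 0.37 (adjusted p = 0.0212). Eef2, the gene of the translocase, had 0.03 (95% interval −0.17 to 0.24). Eef2k, whose kinase inactivates eEF2, lay below the filter at 6.19 to 6.97, with a mean pair difference of −0.19 and 8 of 10 pairs negative. Eef1akmt1 and Eef2kmt, genes of lysine methyltransferases of the 2 factors, had −0.07 and 0.03, and Eef1aknmt, below the filter, had a mean level of 6.05.

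**Figure D2:**
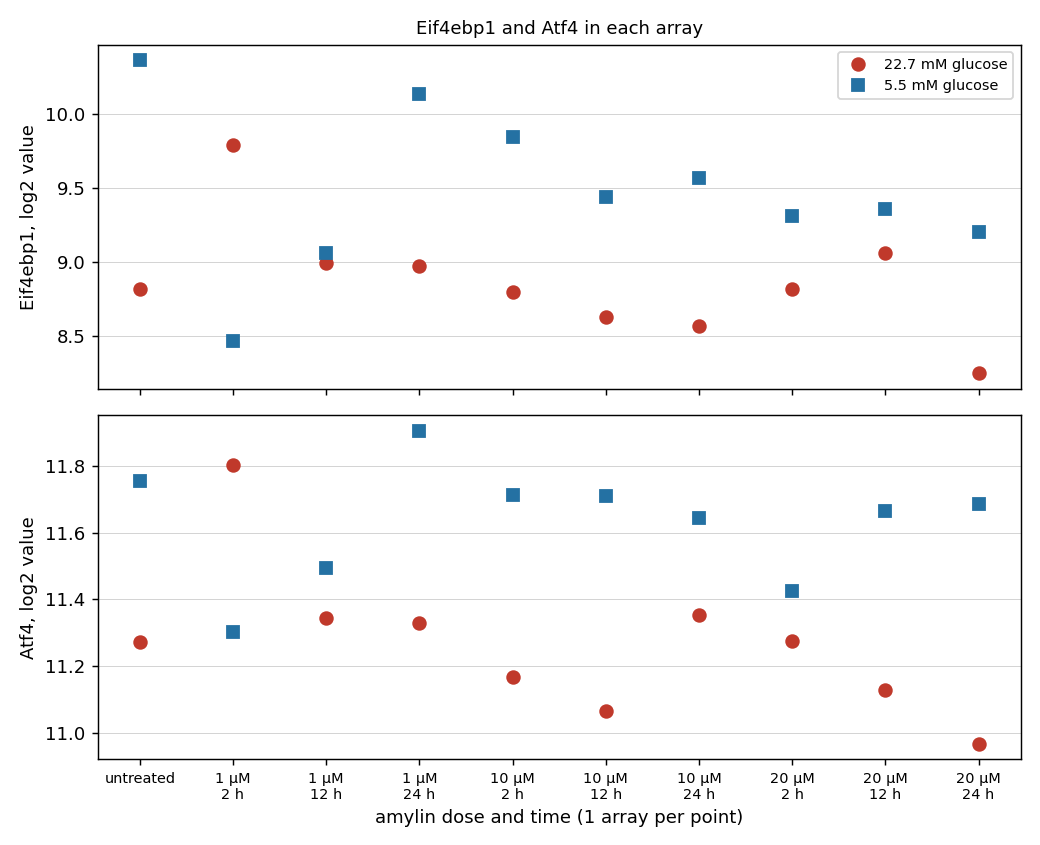
Log2 values of Eif4ebp1 (upper panel) and Atf4 (lower panel) in each of the 20 arrays by amylin dose and time; circles are 22.7 mM and squares 5.5 mM glucose, 1 array per point with no error bar. Both genes were higher at 5.5 mM in 9 of 10 pairs, and in both the exception was the pair given 1 µM for 2 h.

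Eif4ebp1 was also the member that varied most. Its SD over the 20 arrays was 0.56, above that of 99.7% of tested genes, while the median SD was 0.171 over members and 0.194 over all tested genes. Without the 2 deviating arrays these values were 0.58, 0.153 and 0.162. Across the 20 arrays Eif4ebp1 followed Atf4, with Pearson's r = 0.874 and Spearman's rho = 0.875 (2-sided permutation p = 1e-05 for each, the smallest 100000 permutations can give, adjusted p = 1.25e-05 and 1.67e-05 over the 5 relations computed). Over the same arrays it also followed the Atf4 target genes Trib3 (r = 0.939, rho = 0.944), Ddit3 (0.910, 0.889), Asns (0.852, 0.744) and Psat1 (0.729, 0.729). Within 22.7 mM these were 0.875 and 0.818 for Trib3, 0.887 and 0.624 for Ddit3, 0.672 and 0.139 for Asns, and 0.421 and 0.309 for Psat1. There the adjusted permutation p was over 0.05 for Asns and Psat1 by both measures and for Ddit3 by rho. Within 5.5 mM r ran from 0.657 for Psat1 to 0.951 for Trib3. The arrays shared glucose level, RNA quality and scan day, whose part in the relation was examined only by restricting the arrays.

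Within 22.7 mM the correlation with Atf4 was r = 0.850 (permutation p = 0.00722, adjusted 0.012), but rho was 0.467 (permutation p = 0.179, adjusted 0.298), and the array given 1 µM for 2 h had the highest value of both genes. Within 5.5 mM the values were r = 0.841 and rho = 0.842 (permutation p = 0.00256 and 0.00334, adjusted 0.00353 and 0.00835). Within the 7 arrays of scan day 3 r was 0.933 (exact permutation p = 0.00179, adjusted 0.00895) and within the 6 of day 4 it was 0.918 (exact permutation p = 0.0181, adjusted 0.0181). By rho the values were 0.964 on day 3 (exact permutation p = 0.00278, adjusted 0.0139) and 0.829 on day 4 (exact permutation p = 0.0583, adjusted 0.0972). Both days held arrays of both glucose levels. Leaving out the 2 arrays farthest from the median of Atf4 gave 0.818, leaving out the 2 deviating arrays 0.869, and leaving out the pair given 1 µM for 2 h 0.873. As a description, the next highest correlation with Atf4 among the 45 members was that of Eif2s2 at 0.525, the lowest was −0.522 for Eif3b, and the median was 0.002.

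**Figure D3:**
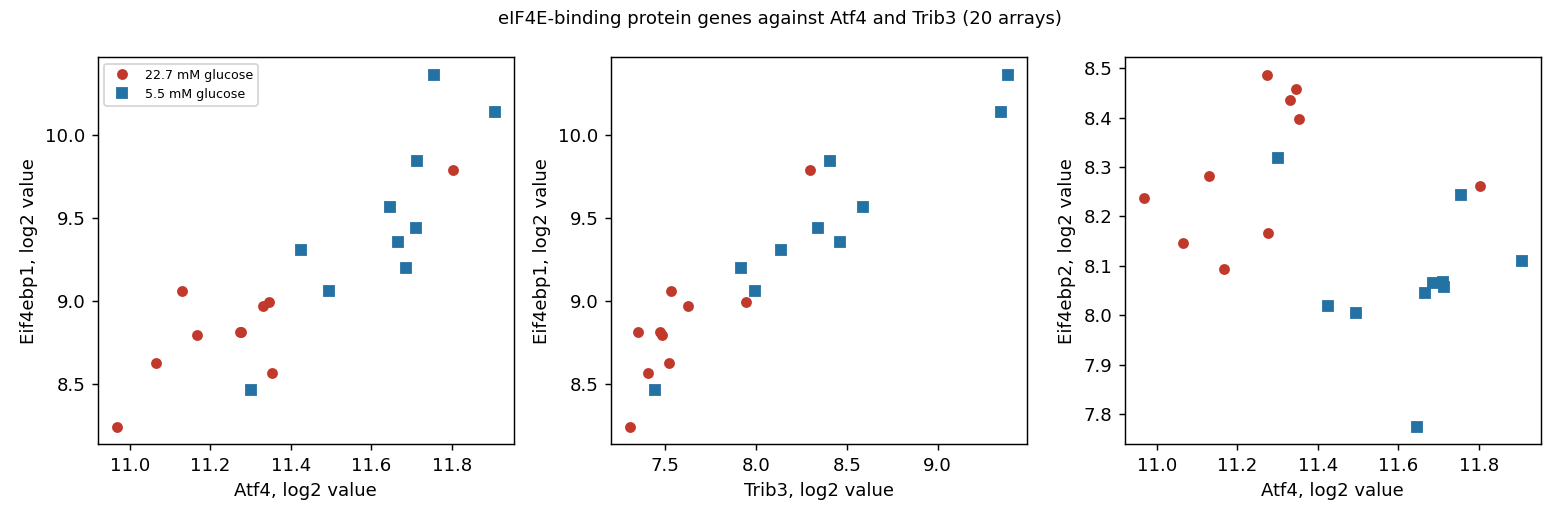
Eif4ebp1 against Atf4 (left) and against Trib3 (middle), and Eif4ebp2 against Atf4 (right), as log2 values in the 20 arrays; circles are 22.7 mM and squares 5.5 mM glucose. Eif4ebp1 lies along a line with both genes (r = 0.874 and 0.939) and the array of 22.7 mM with 1 µM amylin for 2 h lies on it among the 5.5 mM arrays.

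The genes that control these factors were read from 3 lists, in a comparison where 408 of all 7436 tested genes passed (5.49%), 270 higher and 138 lower at 22.7 mM. Of 14 tested genes among eIF2 kinases, phosphatases and Atf4 with its targets, 5 fell at 22.7 mM and 0 rose, with a median difference of −0.35 against 0.04 for all genes. They were Atf4 (−0.36, adjusted p = 0.0440), Trib3, a pseudokinase gene (−0.81, adjusted p = 0.0280), the amino acid synthesis genes Asns (−0.40, adjusted p = 0.0448) and Psat1 (−0.58, adjusted p = 0.0176), and the stress gene Nupr1 (−0.77, adjusted p = 0.0448). The kinase genes Eif2ak1 and Eif2ak3 had 0.08 and 0.06. Among 14 tested genes of mTORC1 and cap-binding control 1 rose, Mknk2, which encodes a kinase of eIF4E (0.31, adjusted p = 0.0172, higher in 10 of 10 pairs), and 0 fell. Among 9 tested genes of release, recycling and hypusination 1 rose, Dhps, which encodes the first enzyme of hypusine synthesis on eIF5A (0.29, adjusted p = 0.0236, higher in 9 of 10 pairs), and 0 fell. With 1 of the 20 arrays left out in turn, Atf4 passed in 6 of 20 fits, Trib3 in 8, Asns in 4, Psat1 in 14, Nupr1 in 6, Mknk2 in 14 and Dhps in 10, each with its sign kept in every fit. Leaving out either array of a pair removed the whole pair from the glucose difference, so the 20 fits covered only 10 distinct omissions. With the actin covariate 0 genes of any kind passed.

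Several members had more than one probe set, and these did not always agree. Tested one by one, 8 of 91 member probe sets passed for glucose, 8.79% against 8.36% of all 10552 probe sets, with 6 lower and 2 higher at 22.7 mM. None of the 8 was the brightest set of its gene. Of 24 member genes with several tested probe sets, 13 had sets of opposite sign.

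A weaker Eif4a1 set ran from 9.23 to 10.4 at 22.7 mM and from 9.79 to 11.4 at 5.5 mM, with a difference of −0.95 (SE 0.17), against −0.28 and −0.10 for the brighter sets. The dimmest tested Eif3a set had −0.79 (SE 0.15), where the brighter sets had −0.06 and −0.02. Of the Eif5 sets, 2 had −0.55 (SE 0.15) and −0.77 (SE 0.13), where the others had −0.19 and −0.18. One Eif2s2 set had −0.40 (SE 0.09) and one Eif4g2 set −0.23 (SE 0.06). In the other direction, Eef1akmt1 sets had 0.38 (SE 0.11) and 0.50 (SE 0.08), where the brightest had −0.07.

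With the actin covariate 0 of the 91 passed, as did 0% of all 10552 probe sets. The Eif4a1, Eif3a and Eef1akmt1 values became −0.21 (SE 0.20), −0.31 (SE 0.22) and 0.63 and 0.43 (SE 0.18 and 0.14). A dim Eif2s3x set below the filter ran from 5.56 to 6.24 at 22.7 mM and from 6.14 to 7.23 at 5.5 mM, with a mean pair difference of −0.82 and all 10 pairs negative, where the sets above the filter had −0.08 and −0.01. The 2 tested sets of Eif4ebp1 had the same sign, −0.61 and −0.43.

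**Figure D4:**
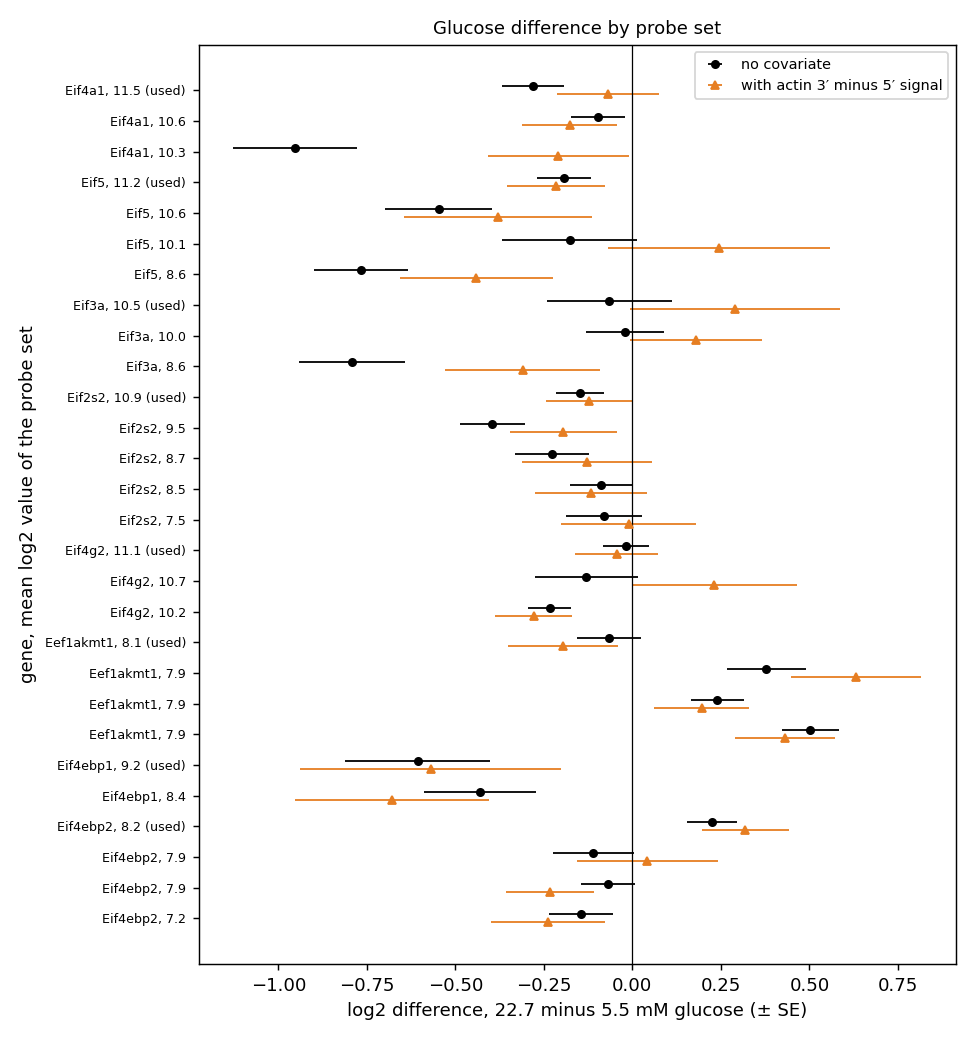
Log2 difference between 22.7 and 5.5 mM glucose for each tested probe set of 8 translation factor genes, with the mean log2 value of the set beside the gene; circles are the fit without covariate, triangles the fit with the actin 3′ minus 5′ signal, bars are standard errors. For Eif4a1 and Eif3a the value farthest below 0, −0.95 and −0.79, moved to −0.21 and −0.31 with the covariate.

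The comparison of amylin-treated with untreated cells asked what the peptide changed. Of the 45 members 0 passed limma's test, as did 0% of all tested genes, and at an unadjusted p under 0.05 there were 0 members against 5.63% of all genes. The members of smallest p were Eif3f, an eIF3 subunit gene (−0.26, 95% interval −0.53 to 0.01), Eif5 (−0.24, 95% interval −0.51 to 0.03) and Eif5b (−0.34, 95% interval −0.73 to 0.05) among negative differences. Among positive ones they were Eif2b2 (0.17, 95% interval −0.04 to 0.39), Eif4e (0.20, 95% interval −0.07 to 0.46) and Eif6 (0.15, 95% interval −0.08 to 0.39). Each rested on a single untreated array at each glucose level, and the intervals reach differences of the size seen for Eif4a1 with glucose.

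From 2 to 24 h of amylin 0 members passed, in a comparison where 0.0538% of all genes did. At an unadjusted p under 0.05 there was 1 member, 2.22% against 8.66%: Eef1b2, which encodes the exchange factor of eEF1A, with −0.29 (SE 0.14, adjusted p = 0.574, negative in 5 of 6 pairs). Negative differences were found in 31 of the 45 members, 68.9% against 48.7% of all genes, and in 10 of the 11 eIF3 genes. At 5.5 mM every eIF3 gene had a negative mean change over the doses. At 22.7 mM only Eif3c, Eif3h and Eif3m did. The 5.5 mM arrays at 24 h include the one of 10 µM that stood apart. In it 8 of 11 eIF3 genes lay below the other arrays of the level. In the second fit below the change was higher at 22.7 than at 5.5 mM in all 11 eIF3 genes and 36 of 45 members. It was lower in the remaining 20% of members, against 42.8% of all genes. Of the members with a higher change, 0 had an unadjusted p under 0.05. Eif3m was negative in 6 of 6 pairs (−0.16, SE 0.08, adjusted p = 0.647). A size of at least 0.2 was reached by 1 member, 2.22%, and by 12.1% of all genes.

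Between 2 and 12 h 0 members passed, where 0.108% of all genes did, and 1 had an unadjusted p under 0.05, 2.22% against 9.31% of all genes. It was Eif4enif1 (0.21, SE 0.10, adjusted p = 0.515, positive in 5 of 6 pairs). Eif4e had 0.19 at 12 h (SE 0.10) and 0.14 at 24 h (SE 0.10), both relative to 2 h. These comparisons share the 2 h arrays.

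Between 20 and 1 µM 0 members passed, as did 0% of all genes, and 3 had an unadjusted p under 0.05, 6.67% against 2.37% of all genes. Eif4a1 was higher at 20 µM in 6 of 6 pairs (0.27, SE 0.11, adjusted p = 0.998). Eif3c, a core eIF3 subunit gene, had −0.22 (SE 0.07, negative in 5 of 6 pairs) and Eef1d, another exchange factor gene, 0.19 (SE 0.08, positive in 4 of 6 pairs). Between 10 and 1 µM 0 members passed, again with 0% of all genes, and 0 had an unadjusted p under 0.05 against 2.80% of all genes. Its extremes by p were Eif3l with 0.21 (95% interval −0.01 to 0.43) and Eif4ebp2 with −0.18 (95% interval −0.37 to 0.02). Both dose comparisons share the 1 µM arrays, one of which stood apart.

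Whether these effects differed between glucose levels was asked in a second fit, with terms for each combination of glucose with treatment, dose or time. For amylin, for 24 against 2 h and for 20 against 1 µM, 0 members passed, as did 0% of all genes in each. At an unadjusted p under 0.05 there were 0, 2 and 0 members, against 3.78%, 10.7% and 4.55% of all genes. The 2 were Eef1akmt1 (−0.51, SE 0.21) and Eif4ebp1 (−0.97, SE 0.40), both with adjusted p = 0.447, where the value is the 24 minus 2 h change at 22.7 mM minus that at 5.5 mM. The Eif4ebp1 value includes the pair given 1 µM for 2 h.

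Translation factor transcripts lay low in the 2 arrays that stood apart. In the array of 22.7 mM, 1 µM and 12 h, 19 of 45 members were below all 9 other arrays of the level, 42.2% against 31.1% of all tested genes, and 3 were above them, 6.67% against 21.5%. In the array of 5.5 mM, 10 µM and 24 h, 24 were below, 53.3% against 35.3%, and 4 were above, 8.89% against 23%. The median difference from the other arrays was −0.14 and −0.26 over members, and −0.07 and −0.10 over all genes.

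In the first array 6 of 11 eIF3 genes, 6 of 9 eIF4 genes and 4 of 6 elongation factor genes lay below the other arrays. So did 0 of 3 genes grouped with eIF2, Eif2d among them, and 0 of 4 eIF2B genes. In the second array the counts were 8 of 11, 5 of 9, 3 of 6, 0 of 3 and 1 of 4. The groups of 3 and 4 genes are too small to be told apart from the shares of all genes, 31.1% and 35.3%. Eef2 differed by −0.94 in the first array and −0.66 in the second, and Eef1b2 by −0.89 and −0.60. Eif3a (−0.82 and −1.29) was low in both, and Eif4h had its largest difference in the second, −1.27. Without the 2 arrays the glucose differences of Eif3a and Eif4h were −0.16 (SE 0.11, adjusted p = 0.389) and −0.11 (SE 0.07, adjusted p = 0.353), against −0.06 and −0.01 over all arrays. Eef1akmt1 went the other way, with 0.47 and 0.50, and was above all other arrays in both.

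Other measures moved with these arrays too. For each list of markers, the median deviation of its genes from their means over all arrays, of both glucose levels, was taken. That of the beta cell markers was −0.23 and −0.40, against −0.11 to 0.28 in the other 18 arrays. Those of the fibroblast markers (0.48 and 0.54) and acinar markers (0.58 and 0.55) were positive. Their ranges in the other 18 arrays were −0.17 to 0.14 and −0.25 to 0.22. The other islet hormone genes had 0.08 and 0.48, within their range of −0.41 to 0.76. The array medians over all probe sets were 7.25 and 7.28 against 7.04 to 7.15. The part of these measures in the low values was not tested.

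**Figure D5:**
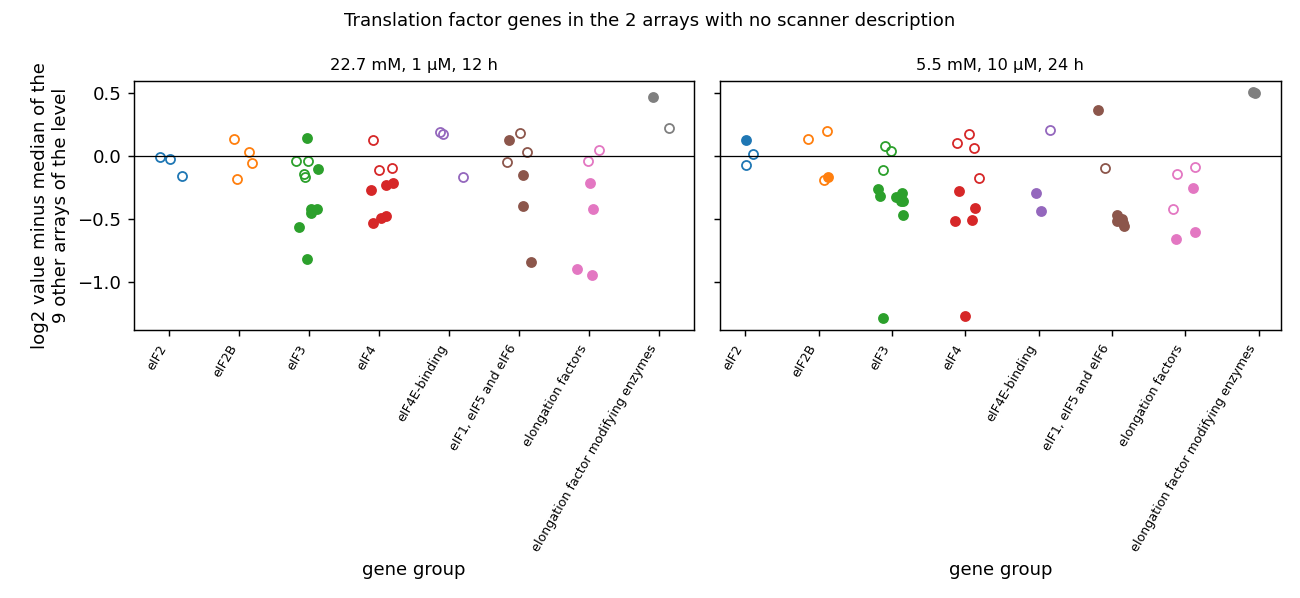
Log2 value of each tested translation factor gene minus the median of the 9 other arrays of the same glucose level, in the 2 arrays that stood apart, by factor group; filled points lie outside the range of the other 9 arrays and open points within it. In the left array 19 of 45 genes lie below that range and in the right one 24 do, with Eif3a and Eif4h lowest on the right.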

How the data were processed

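Total RNA was hybridised to 20 arrays, 1 array per condition. The deposited values are log2 probe set intensities, made by the authors with RMA in affy 1.12.2 and R 2.4.0, per the submitters' processing notes. RMA corrects background, makes the arrays' distributions alike and summarises probes, which can hide a shift of all genes at once. Whether all arrays were normalized in 1 run is not given in the sources used here, and precision is limited by the number of arrays.

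Of 22690 probe sets, 20380 named 1 gene, 691 several and 1555 none, by the platform annotation. The brightest set stood for each gene, and genes below the 40% point of mean level (7.08) were left out. Each gene was fitted with limma 3.58.1 in R 4.3.3 (lmFit, eBayes with trend) on glucose and amylin condition (10 levels), leaving 9 residual degrees of freedom. P-values were adjusted by the Benjamini-Hochberg method over 7436 genes, with a threshold of 0.05. Interactions of glucose with treatment, dose and time came from a second fit. Correlations over arrays used 100000 permutations, or all of them under 10 arrays. The fits were tested on simulated data. P-values measure the spread between single arrays of different conditions, which may be technical.

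Scan day (4 days) and fluidics protocol came from scanner descriptions of 18 arrays. The 2 other arrays were left out as an alternative. Further alternatives were other filters, summaries of probe sets, scalings, variance models, batch terms, the actin covariate, array weights and each array left out in turn. Named genes were members passing the test, up to 10 per direction, or else the 3 of smallest p in each direction, with fixed members such as Eif4e, Eef2 and the best of each group for glucose. For time and dose the text gives only some of the genes so selected, and not always both directions. Other genes were named for the weaker probe sets and where single arrays deviated, after their values were seen. The members and lists were chosen with earlier results of these data known.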

Additional observations from a re-analysis of the deposited data

Results flagged for a closer look

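In the 90 groups of 10 arrays (45 genes at 2 glucose levels), 14 held an array whose gap to the nearest other value exceeded Dixon's critical share of the range, 0.466, which chance reaches in about 1 of 20 groups. Of the 14, 11 were in the 2 arrays that stood apart. In those arrays 31.1% and 35.3% of all tested genes lay below the other arrays of the level, and 21.5% and 23% above. The same count was not made over all tested genes, so it does not show a trait of the members.

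At 5.5 mM, the array of 10 µM amylin for 24 h was low for Eef1b2 (10.4), Eif1b (9.03), Eif3a (9.37), Eif3h (10.38), Eif4h (10.5) and Eif5a (11.7), and high for Eif1a (8.62). At 22.7 mM, the array of 1 µM for 12 h was low for Eef1d (10.1), Eef2 (11.4), Eif3e (10.9) and Eif4b (10.2). Eif4e3 was high at 5.5 mM in the array of 1 µM for 12 h (9.50), Eif5 was high at 22.7 mM in the untreated array (11.5), and Eif4ebp1 was high at 22.7 mM in the array of 1 µM for 2 h (9.79).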

How the results depend on the processing

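For glucose, where 0 of 45 members passed, averaging each gene's probe sets gave 3 (Eef1akmt1 at 0.26, opposite to its value of −0.07, Eif2s3x at −0.30 and Eif4a1 at −0.44), renewed quantile normalization 1 (Eif4a1), an additive model 1 (Eif4ebp2), scan day as a block 9, leaving out the 2 arrays with no scanner description 3, array weights 6 and, added after seeing the data, fluidics protocol as a block 2 (Eif4a1 and Eif4a2). In the same order these were 6.67%, 2.22%, 2.22%, 20%, 6.67%, 13.3% and 4.44% of members, against 4.98%, 5.9%, 5.04%, 14.7%, 9.99%, 15.5% and 8.41% of all genes. Tested by probe set, also added, 8 of the 91 member sets passed (8.79% against 8.36% of all sets). Without the 2 arrays 14 did (15.4% against 13.8%), and with the actin covariate 0 did, as did 0% of all sets. The block for scan day used 17 arrays with 5 residual degrees of freedom. The 9 were Eef1a1, Eef1a2, Eif2d, Eif3a, Eif3m, Eif4a1, Eif4ebp1, Eif5 and Eif5b. With single arrays left out, 0 to 4 members passed. The 4 (Eef1a1, Eif4a1, Eif4a2 and Eif5) came without either array of the pair given 10 µM for 24 h, 8.89% of members against 8.82% and 8.84% of all genes. Without either array of the pair given 1 µM for 2 h, 3 passed, 6.67% against 6.93%. Other filters, median centring, other variance models and an unmatched model gave 0. Of all genes, 2.39% (no filter) to 6.86% (lowest 60% left out) passed under these. The actin covariate also gave 0, with 0% of all genes. For these changes the cause was not tested. Of 17 genes named for glucose, 9 changed sign under some alternative. In the contrasts of amylin, time and dose 0 members passed under every alternative run. The interactions, also at 0, were rerun only with median centring, renewed quantile normalization, both other variance models and without the 2 arrays. The correlation of Eif4ebp1 with Atf4 kept its sign and its side of the threshold by Pearson's r in every subset. The labels give no replicate numbers, so the matched pairs of the glucose comparison were formed by amylin condition. With 1 array per condition, a single pair's difference has no error of its own.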
